A study of Drosophila melanogaster with 8 samples.

Results

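The genes described here make, clear and sense GABA, the main inhibitory transmitter of the fly brain. They are Gad1 (CG14994), Gabat (CG7433), Ssadh (CG4685), Gat (CG1732), Lcch3 (CG17336) and GABA-B-R3 (CG3022). Every cDNA clone that the platform annotation assigns to 1 of these 6 genes was kept, whatever its values. The rule gave 7 clones of the 13824 on the array, with Gad1 represented by 2 clones and each other gene by 1. Each clone was printed as 2 spots, so the set held 14 of 27648 spots.

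RNA came from pooled whole heads of unmated wild-type Oregon-R males that were 3 to 4 days old when treatment began. The drug sequence was pentylenetetrazole (PTZ, 8 mg/ml of food, 7 days) followed by vigabatrin (VGB, 24 mg/ml of food, 3 days), with a harvest at its end on day 10. In the other arm, 4 days on normal food came after the drugs and the harvest fell on day 14. Controls ate normal food all along and had their own harvest on each day. There were 4 two-colour arrays per day, each pairing a drug-fed pool with its parallel control pool. Treated RNA was in Cy5 in replicates 1 and 2 and in Cy3 in replicates 3 and 4. No group received PTZ or VGB alone, so the drugs of the sequence cannot be told apart, and time and drug withdrawal cannot be told apart between the days.

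Glutamate decarboxylase, the product of Gad1, makes GABA from glutamate. GABA transaminase (Gabat) and succinic semialdehyde dehydrogenase (Ssadh) break it down to succinate, which enters the citric acid cycle, and the plasma membrane transporter Gat, found on astrocyte-like glia in flies, takes it up from the extracellular space. GABA acts on ligand-gated ion channels, of which Lcch3 encodes a subunit, and on G-protein-coupled GABA-B receptors, of which GABA-B-R3 is a member. PTZ blocks GABA-gated chloride channels and provokes convulsions, whereas VGB is an anticonvulsant and an irreversible inhibitor of the transaminase. Both drugs act on proteins, and the arrays measured transcripts.

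The deposited data were log2 ratios. Their direction is not stated, and it was taken as Cy5 over Cy3, which the order of the labels' channels makes likely. Arrays with treated RNA in Cy3 were turned, so that every value below is the log2 ratio of treated over control and a negative value means lower in treated heads. Had the deposited ratios already been turned, the values of the 4 arrays with treated RNA in Cy3 would change sign. Array medians after turning lay between -0.48 and 0.24, and day-10 replicates 1 and 2 had the lowest, -0.48 and -0.35. Values called centred had the array's median subtracted. Between 8419 and 20241 spots per array had a value, and precision is limited by the number of arrays.

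A ratio was present for the 7 clones in 30 of 56 possible combinations of clone and array, 15 of 28 on each day. That share, 53.6%, lay beside 53.0% for all clones and 61.1% for clones with 1 named gene. Both spots were measured in all 30. The first Gad1 clone had a value on 8 arrays, Lcch3 on 7, Gabat on 5, the second Gad1 clone, Gat and Ssadh on 3 each, and GABA-B-R3 on 1. The second Gad1 clone and GABA-B-R3 were measured in 1 dye orientation only, so that a treatment effect and a dye effect cannot be told apart for these 2 clones.

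**Figure D1:**
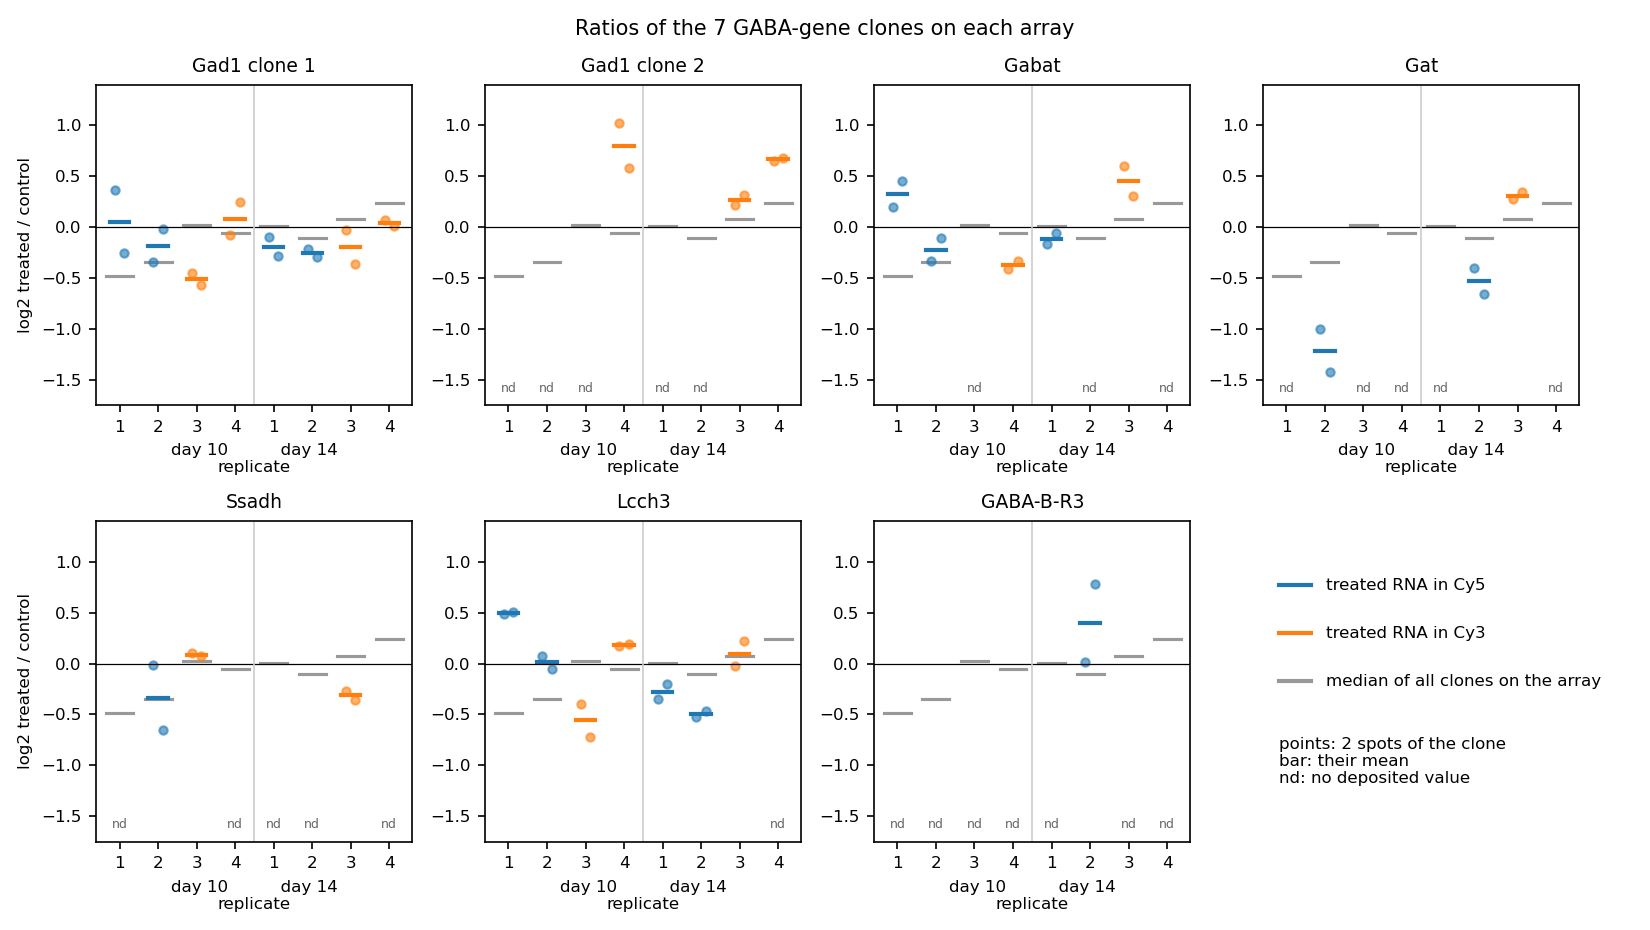
Log2 ratio of treated over control (y axis) for each of the 7 clones in every replicate of day 10 and day 14 (x axis); points are the 2 spots of the clone, coloured bars their mean by dye orientation, grey bars the median of all clones on the array, and nd marks arrays with no value. The first Gad1 clone lies between -0.51 and 0.08 on its 8 arrays, whereas the single day-10 value of Gat is -1.22.

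The first Gad1 clone was close to equal in treated and control heads on both days. At day 10 its ratios in replicates 1 to 4 were 0.05, -0.18, -0.51 and 0.08, a mean of -0.14 ± 0.28 (SD, n = 4). At day 14 they were -0.19, -0.25, -0.20 and 0.04, a mean of -0.15 ± 0.13 (SD, n = 4). Replicate 3 was the lowest array of day 10, and all 4 day-14 values lay inside the range of day 10. In the limma fit over all clones, with both days and a dye term, the day-10 ratio was -0.14 with a 95% interval from -0.42 to 0.14 (adjusted p = 0.441). The day-14 ratio was -0.15, with an interval from -0.43 to 0.13 (limma adjusted p = 0.595). On a linear scale the day-10 interval spans 0.749 to 1.10 times the control level and the day-14 interval 0.742 to 1.09 times. The difference between the days was -0.01, with an interval from -0.41 to 0.38 (limma adjusted p = 0.967).

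Centring turned the sign of this clone at day 10. After it, its day-10 values were 0.54, 0.16, -0.53 and 0.14, with 3 of 4 above the array median. At day 14 the centred values were -0.20, -0.15, -0.27 and -0.20, all below the array median, with an SD of 0.05 (n = 4). The fitted centred ratio was 0.08 at day 10 and -0.21 at day 14, and the day-14 value did not pass the test either (limma adjusted p = 0.444).

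The second Gad1 clone was higher than the first on every array that measured both. It had a value on 3 arrays, all with treated RNA in Cy3. The ratio was 0.80 in day-10 replicate 4, with its spots at 1.02 and 0.58, which put it at the 99.6th percentile of the clones on that array. In day-14 replicates 3 and 4 it was 0.27 and 0.66. It thus exceeded the first clone by 0.72, 0.46 and 0.63, in 3 of 3 shared arrays. Clone pairs of other genes on these arrays lay a median of 0.21, 0.25 and 0.28 apart, and 94.2%, 80.9% and 87.1% of them lay closer together than the Gad1 pair. Both clones were above 0 on 2 of the 3 shared arrays, and in day-14 replicate 3 the first was below 0 and the second above. These gaps are on the deposited scale. With the median of the clones printed around each subtracted, the gap was narrower on both day-14 arrays. The second clone then stood at 0.09 and 0.29 in replicates 3 and 4, and the first at -0.115 and -0.0255. In day-10 replicate 4 the second clone had too few neighbours for such a value. Only the first was measured often enough to be tested.

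Gabat, the enzyme that VGB inactivates, varied in sign from array to array. At day 10 its ratio was 0.33 in replicate 1, -0.22 in replicate 2 and -0.37 in replicate 4, a mean of -0.09 ± 0.37 (SD, n = 3). At day 14 it was -0.11 in replicate 1 and 0.45 in replicate 3, a mean of 0.17 ± 0.40 (SD, n = 2). Day-14 replicate 1 lay inside the range of day 10 and day-14 replicate 3 above it. Within day 10 the Cy5-treated arrays included the highest value and the Cy3-treated array the lowest, and at day 14 the order was the reverse. Because the main test required 3 arrays of each day, Gabat was tested only in a fit that required 2, which held 7028 clones. There the day-10 ratio was -0.09, with an interval from -0.56 to 0.38 (limma adjusted p = 0.782), 0.679 to 1.30 times the control level. The day-14 minus day-10 difference was 0.26 with an SE of 0.31 (limma adjusted p = 0.611). After centring, the day-10 ratio was 0.17 and the difference -0.04, so neither had a stable sign.

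Ssadh, the enzyme of the next step, had too few values for a test. At day 10 its ratio was -0.33 in replicate 2 and 0.09 in replicate 3. At day 14 its only value was -0.31, in replicate 3. The day-10 replicate 2 spots were far apart, at -0.01 and -0.66, and centring on the low median of that array moved the value to 0.01. The centred value of day-10 replicate 3 was 0.07 and that of day-14 replicate 3 was -0.39. The centred day-10 values were thus both near the array median and the single day-14 value lay at the 10.2th percentile of its array. In day-10 replicate 3 the clones printed around it had a centred median of -0.45. With the surrounding median subtracted, Ssadh stood at -0.03 and 0.52 in day-10 replicates 2 and 3, and at -0.47 in day-14 replicate 3.

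Gat held the lowest ratio of the set. In day-10 replicate 2, the only array of that day to measure it, the ratio was -1.22, with spots at -1.01 and -1.43. That value lay at the 1.94th percentile of the clones on the array and was -0.87 after centring. The clones printed around it had a centred median of -0.27, and with their median subtracted the value was -0.60. At day 14 the ratio was -0.53 in replicate 2 and 0.31 in replicate 3. The arrays with treated RNA in Cy5 were thus low and the array with treated RNA in Cy3 was high. Before turning, all 3 deposited values were negative, at -1.22, -0.53 and -0.31. The day-14 mean, with 1 array of each orientation, was -0.11 ± 0.59 (SD, n = 2). The day-10 value has 1 orientation only, so a dye effect and a treatment effect cannot be told apart in it.

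Clones of glial marker genes, which share their cell class with Gat, were also low on the array that gave the lowest Gat value. In day-10 replicate 2, 8 of 8 measured glial clones lay below the array's median, with centred ratios from -0.94 to -0.11 and a median of -0.61. These clones stood for 7 of the 9 listed glial genes, with Tret1-1 represented by more than 1 clone. With the slide neighbours' median subtracted they ran from -1.03 (Tret1-1) to 0.02 (nrv2), and only nrv2 was above 0. On that scale Gs2, alrm and moody stood at -0.24, -0.27 and -0.29. On the other arrays that measured Gat, glial clones lay on both sides of the array's median. Their centred ratios ran from -1.06 to 0.81 in day-14 replicate 2, where Gat stood at -0.43. In day-14 replicate 3 they ran from -0.61 to 0.23, and Gat stood at 0.23. Over all day-10 arrays, 4 of the 4 glial clones tested were lower in treated heads as deposited, from -0.92 to -0.57 in the limma fit, beside 14.0% of all clones called. The count was 1 of 4 after centring, beside 3.02%, and 1 of 4 with the slide neighbours' median subtracted, beside 1.41%. The part of this shift in the Gat value was not tested. In whole heads, fewer cells of a type and less RNA per cell cannot be told apart. Of the neuronal markers only nSyb was on the array, with a day-10 ratio of 0.26 (limma adjusted p = 0.241), while elav, Syt1, brp, Syn and Cadps were not named in the annotation. Of the fat body clones, 5 of 6 were lower at day 10 as deposited (all 6 from -1.29 to -0.51), of the photoreceptor clones 0 of 2, and of the muscle clones 1 of 4, beside the same 14.0%. After centring the counts were 4 of 6, 0 of 2 and 0 of 4, and with the neighbours subtracted 3 of 5, 0 of 2 and 0 of 3.

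Lcch3, the ion channel subunit, ranged more widely among the day-10 arrays than the first Gad1 clone, the only other clone measured on all 4. Its day-10 ratios in replicates 1 to 4 were 0.50, 0.01, -0.56 and 0.18, a mean of 0.03 ± 0.44 (SD, n = 4). In replicates 1 to 3 of day 14 they were -0.28, -0.50 and 0.09, a mean of -0.23 ± 0.30 (SD, n = 3). The days overlapped, since all 3 day-14 values lay inside the range of day 10. At day 10 the fitted ratio was 0.03, with an interval from -0.35 to 0.41 (limma adjusted p = 0.90). At day 14 it was -0.24, with an interval from -0.69 to 0.21 (limma adjusted p = 0.603). These intervals span 0.787 to 1.33 and 0.622 to 1.16 times the control level. The difference between the days was -0.27 with an SE of 0.26 (limma adjusted p = 0.49), and -0.53 after centring (limma adjusted p = 0.539).

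Lcch3 moved with the clones printed around it. Its centred ratios in day-10 replicates 1, 2 and 3 were 0.98, 0.36 and -0.58, and the medians of the surrounding clones, within 2 rows and 3 clones of the same print block, were 1.03, 0.37 and -0.78. In day-14 replicates 1 to 3 the clone stood at -0.28, -0.39 and 0.02 and its neighbours at -0.20, -0.39 and 0.05. After the neighbours' median was subtracted, the 6 values lay between -0.08 and 0.20, and day-10 replicate 4 had too few neighbours for a value. On that locally centred scale the day-10 ratio was 0.07, with an interval from 0.881 to 1.25 times the control level (limma adjusted p = 0.843), the day-14 ratio was -0.02 (limma adjusted p = 0.96), and the difference between the days was -0.08.

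The first Gad1 clone followed its neighbours on most arrays but not all. Around it the neighbours' centred medians were 0.65, 0.30, 0.15 and 0.07 at day 10, against its own 0.54, 0.16, -0.53 and 0.14. At day 14 they were -0.17, -0.05, -0.16 and -0.18. Day-10 replicate 3 was the exception, where the clone stayed 0.68 below its surroundings. With the neighbours subtracted, the fitted ratio was -0.21 at day 10 (limma adjusted p = 0.447) and -0.07 at day 14 (limma adjusted p = 0.834). The difference between the days became 0.15, the opposite sign of the deposited scale.

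**Figure D2:**
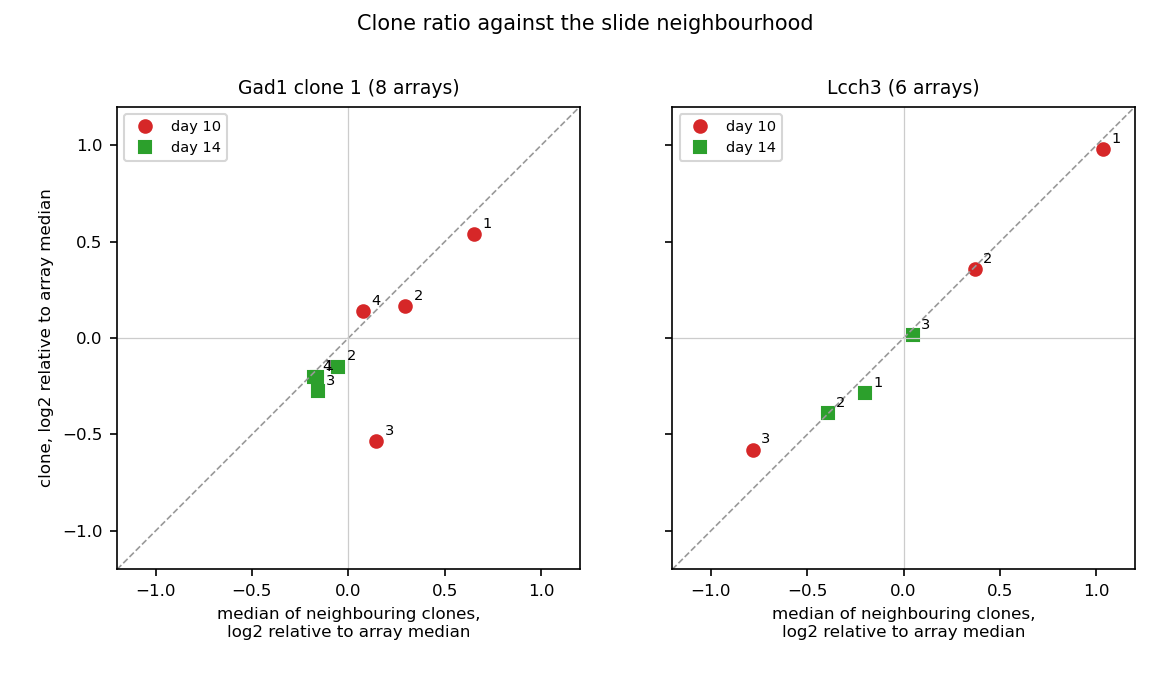
Centred log2 ratio of a clone (y axis) against the median centred log2 ratio of the clones printed around it (x axis), 1 point per array, for the first Gad1 clone and for Lcch3, with the line of equality dashed. The Lcch3 points lie along the line from -0.78 to 1.03 on the x axis, and the first Gad1 clone falls 0.68 below it in day-10 replicate 3.

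The first Gad1 clone and Lcch3 moved together over the arrays only as long as the slide neighbourhood was kept. Over the 7 arrays that measured both, 4 of day 10 and 3 of day 14, Pearson's r was 0.85 (exact permutation p = 0.0115, two-sided; Benjamini-Hochberg 0.0173 over 3 scales) and Spearman's rho was 0.86 (exact permutation p = 0.0238; adjusted 0.0357). Without the 2 arrays on which the first Gad1 clone lay farthest from its own median, r was 0.88. These 2 arrays were picked anew on each scale, without regard to Lcch3. After centring r was 0.94 (exact permutation p = 0.0036; adjusted 0.0107) with rho at 0.86, and 0.76 without 2 arrays. With the neighbours subtracted, r over 6 arrays was -0.97 (exact permutation p = 0.0194, two-sided) and rho was -0.66 (exact permutation p = 0.175), and without the 2 farthest arrays r was 0.28, so that relation rests on those arrays. These permutations treat the arrays as exchangeable, although arrays share a day, a dye orientation and slide regions. The part of those in the correlation was not tested, and each day held too few arrays for a value of its own.

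The clones most like these 2 were also different before and after the neighbours were subtracted. By Pearson's r of centred ratios over 8 arrays, among 1104 named clones, the first Gad1 clone was most like thoc7 (r = 0.98), yellow-d (0.95) and CG1764 (0.95), and thoc7 sat in the same print block, number 9. Over 7 arrays and 1164 clones, Lcch3 was most like SF2 (r = 0.99), CG14969 (0.98) and brwl (0.98), and the first Gad1 clone ranked 20. On the locally centred scale the first Gad1 clone was most like kek4 (0.95), Vha44 (0.88) and Obp19d (0.88) and Lcch3 was most like CG3032, lbk and dos. These likenesses describe 8 or fewer arrays that share their neighbourhoods and dyes, and none is a test.

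GABA-B-R3, the metabotropic receptor, was measured once. Its ratio in day-14 replicate 2 was 0.40, from spots at 0.02 and 0.78, and 0.51 after centring. The gap between its 2 spots, 0.77, was wider than the value itself. It had no value at day 10.

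Of the 7 clones, 2 entered the test over 4563 clones, the first Gad1 clone and Lcch3, and neither was called at an adjusted p under 0.05 in limma at day 10, where 14.0% of all tested clones were called. At day 14 and for the difference between the days, 0 of 2 were called, as were 0% of all clones, although 802 and 1225 clones had an unadjusted p under 0.05. For the mean of both days the count was 0 of 2, against 9.86% of all clones. With day 14 fitted alone, 15.0% of 5674 clones were called, and the first Gad1 clone (-0.15, limma adjusted p = 0.39) and Lcch3 (-0.15, limma adjusted p = 0.524) were not. Neither had an unadjusted p under 0.05 for either day, their difference or their mean. In the fit with at least 2 arrays of each day, Gabat joined them, and 0 of 3 were called against 7.26% of all clones at day 10. For the other 4 clones the arrays gave values but no test.

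Of 50 genes listed for the GABA pathway, the glutamate that feeds it and its receptors' partners, 25 were named in the annotation, and 12 clones outside the 6 genes above were tested. At day 10, 5 of these 12 (41.7%) were lower in treated heads, 0 were higher, and 7 did not pass, beside 14.0% called among all tested clones. The lists were chosen with earlier results of these data known, so this count is a description and no test of the pathway. Their median was -0.18, and that of all tested clones was -0.21. After centring the count was 0 lower and 1 higher (beside 3.02%), and with the neighbours subtracted 1 of 11 was lower (beside 1.41%). At day 14 and for the difference between the days the count was 0 on all 3 scales. The count of 5 became 1 without day-10 replicate 1 or 2, 2 without day-14 replicate 3 or 4, and 3 without day-10 replicate 4. The channels Rdl and Grd, the vesicular transporter VGAT, GABA-B-R1, GABA-B-R2, the transporter Eaat1 and the chloride cotransporters kcc and NKCC were not among the named genes of the array.

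Of the enzymes that handle glutamate and glutamine, Gs2, a glutamine synthetase, was lower at day 10. Its day-10 ratios were -0.62, -0.72, -0.48 and -0.53, and its day-14 ratios 0.04, -0.36, -0.02 and -0.06. As deposited, all 4 day-10 arrays lay below all 4 day-14 arrays. After centring the days overlapped, with day 10 from -0.50 to -0.13 and day 14 from -0.30 to 0.03. They also overlapped with the neighbours subtracted, where day-14 replicate 4 stood at -0.54. The fitted day-10 ratio was -0.59 with an SE of 0.11 (limma adjusted p = 0.00771), and the difference between the days did not pass (0.48, limma adjusted p = 0.13). The call was lost after centring, at -0.37 (limma adjusted p = 0.0742), and with the neighbours subtracted, at -0.43 (limma adjusted p = 0.108). Gs2 is also among the glial markers used above. The gene sgll encodes a pyridoxine 5'-phosphate oxidase, which makes the cofactor of glutamate decarboxylase. Its ratios were -1.28, -0.73 and -0.30 in day-10 replicates 1, 2 and 4, and from -0.79 to -0.24 at day 14, all negative. It was lower at day 10, at -0.74 with an SE of 0.19 (limma adjusted p = 0.0301). The call was lost after centring, at -0.49 (limma adjusted p = 0.149), and with the neighbours subtracted, at -0.51 (limma adjusted p = 0.147). It was also lost with at least 2 arrays of each day, without day-10 replicate 1 or 2, and without day-14 replicate 3 or 4. At day 14 its ratio was -0.60 (limma adjusted p = 0.166). With day 14 fitted alone it was lower (limma adjusted p = 0.000491), in a fit that called 15.0% of all clones. For Gs1, the other glutamine synthetase, the ratio of -0.13 did not pass at day 10 as deposited (limma adjusted p = 0.488), and it was lower at -0.45 with the neighbours subtracted (limma adjusted p = 0.0258). Gdh, the glutamate dehydrogenase, had -0.16 (limma adjusted p = 0.498), with day-10 replicate 3 at -0.78 and the other 3 arrays from -0.03 to 0.12.

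SdhD encodes a subunit of the citric acid cycle enzyme that acts on the succinate that GABA breakdown yields. Ogdh acts at an earlier step of the cycle that GABA breakdown bypasses. SdhD and Ogdh were lower at day 10. Both were lowest in day-10 replicates 1 and 2, the arrays with the lowest medians: Ogdh stood at -1.06 and -0.84 there and at -0.04 in replicate 4, and SdhD at -0.92 and -0.98 there and at -0.02 and -0.14 in replicates 3 and 4. Ogdh, a dehydrogenase of the cycle, had a fitted ratio of -0.56 with an SE of 0.16 (limma adjusted p = 0.0395), and SdhD, a membrane subunit of succinate dehydrogenase, had -0.51 with an SE of 0.12 (limma adjusted p = 0.0181). A further SdhD clone lay between -0.83 and -0.10 on 3 day-10 arrays, and in the fit that required 2 arrays of each day its ratio was -0.52 (limma adjusted p = 0.0882). After centring they were -0.31 and -0.30, and with the neighbours subtracted -0.06 and -0.12, and neither passed on those scales. The transporter Eaat2 had -0.11 (limma adjusted p = 0.509). At the synapse, Nlg3, a neuroligin, was negative on 4 of 4 day-10 arrays, from -0.75 to -0.20, and lower at -0.45 with an SE of 0.12 (limma adjusted p = 0.0361). It was -0.23 after centring (limma adjusted p = 0.24) and -0.04 with the neighbours subtracted (limma adjusted p = 0.928).

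Nrx-1, the presynaptic partner of neuroligins, was the only clone of the lists called higher on the centred scale, and it was not called as deposited. Its day-10 ratios in replicates 1 to 4 were 0.51, 0.48, 0.57 and -0.0045. Replicate 4 stood apart from the other 3. The deposited scale gave 0.39 with an SE of 0.12 (limma adjusted p = 0.0551) and the centred scale 0.60 with an SE of 0.11 (limma adjusted p = 0.0218). It was also called in the fit limited to clones on all 8 arrays (0.39, limma adjusted p = 0.0322), where 26.9% of 1881 clones were. With the neighbours subtracted it was 0.08 (limma adjusted p = 0.742). A further Nrx-1 clone, not tested, was close to it in day-10 replicate 1, at 0.45. It differed in day-10 replicates 2 and 3, where it stood at -0.65 and -0.19. In day-14 replicate 2 it was at 1.01, and the tested clone was at 0.37. Leaving out single arrays, the centred value of the tested clone ran from 0.51 to 0.71 with adjusted p from 0.0357 to 0.117 in limma. The call was lost without day-10 replicate 1, 2 or 3 and without day-14 replicate 3 or 4.

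**Figure D3:**
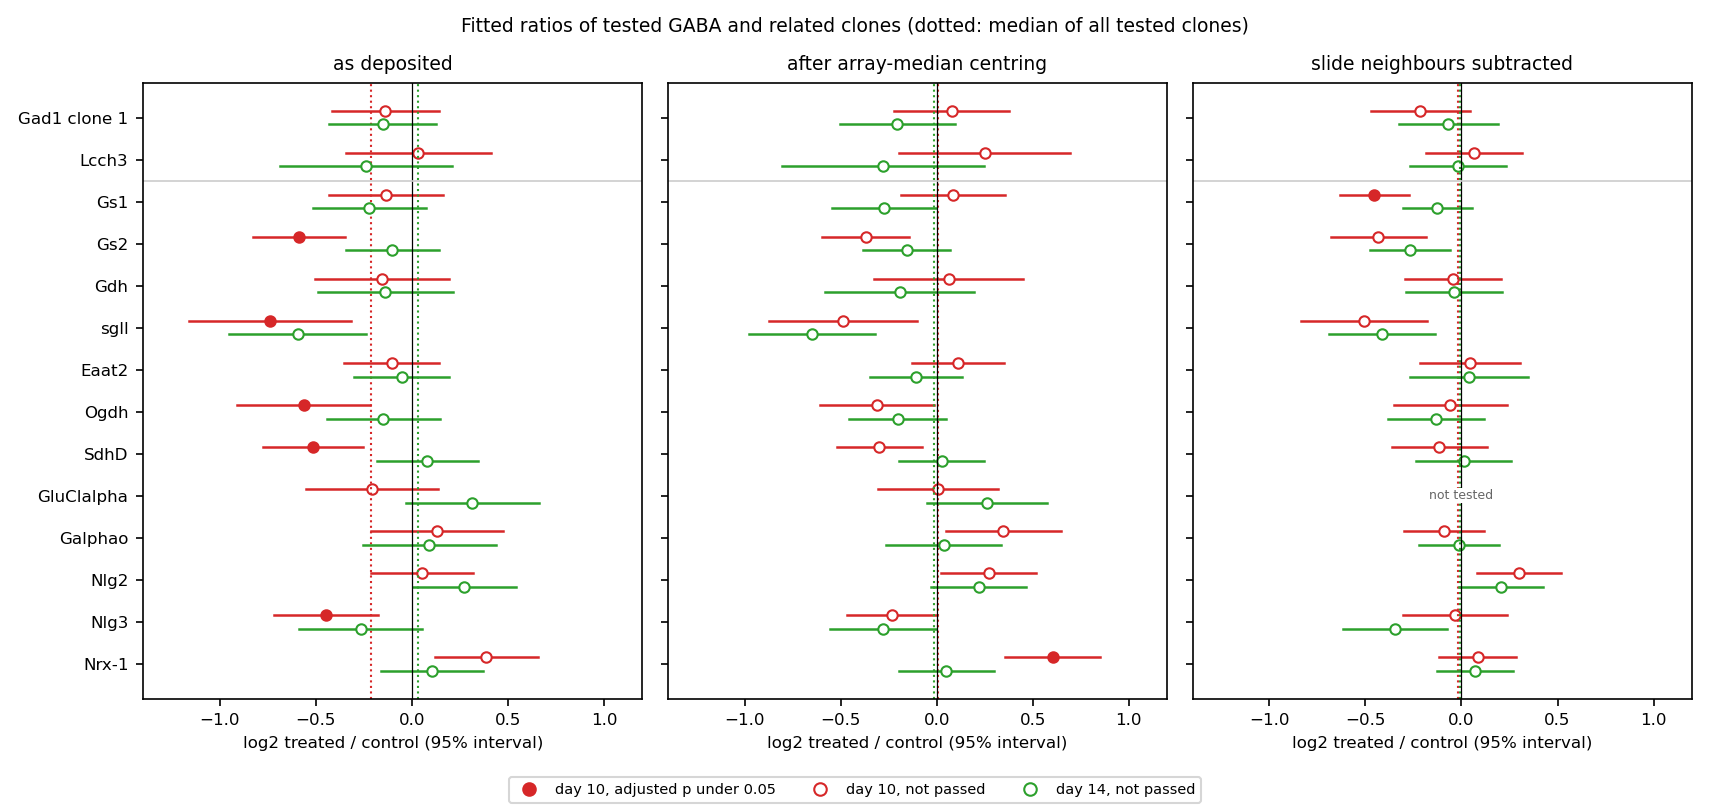
Fitted log2 ratio of treated over control at day 10 and day 14 (x axis, with 95% intervals) for the tested clones of the GABA genes and the related genes (y axis), in a panel for each scale (as deposited, centred on the array median, and with the slide neighbours subtracted); filled points passed an adjusted p under 0.05 in limma, and dotted lines mark the median of all tested clones on each day. The first Gad1 clone and Lcch3 cross 0 in every panel, and the lower ratios of Ogdh and SdhD move from -0.56 and -0.51 to -0.06 and -0.12 between the deposited and the locally centred scale.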

How the data were processed

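Log2 ratios were deposited by the authors, 1 per spot and array, for 8 arrays. Per the submitters' design text, slides were scanned on a GenePix 4000A, quantified in GenePix Pro 6.0 and ratio-normalized in Acuity 4.0, and spots were kept at an intensity of at least 100, signal no less than 2 times background, saturated pixels below 3%, R2 from 0.6 up, signal-to-noise from 3 up and presence in at least 3 replicates. Some clones have values on fewer arrays than that. The statistical test is not given in the sources used here. Both spots of a clone were averaged. The 8 arrays held values at 8419 to 20241 spots each. Both spots of a clone had a Spearman correlation of 0.61 to 0.84 per array. No genome build or sequence table was used, so no coordinates are given. Of 7558 clones with 1 gene, 7447 took their current symbol from RefSeq (Release 6, names only).

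Clones with values on 3 or more of a day's 4 arrays, on both days and in both dye orientations, were fitted with limma 3.58.1 in R 4.3.3, with a coefficient per day and a dye term, and Benjamini-Hochberg adjustment. Array-median centring and leaving out each array were alternatives. Subtracting the median of neighbours within 2 rows and 3 clones of the same print block, at least 5 of them, was also an alternative, with the layout of print blocks worked out from how many spots there were and their order. The fit was tested on simulated ratios that had a dye effect and the real pattern of missing values. They held no shift of whole arrays or slide regions, so that simulation cannot speak to such shifts. The labels call the pools biological replicates. Each array held its own pair of pools, so p-values measure the spread between pools together with that between arrays and slide positions. The genes and lists were chosen with earlier results of these data known. Named beside the 6 genes were listed pathway genes that passed a test, a preset group of them whatever their values, and the 3 named clones most like a clone measured on at least 6 arrays. 0 columns of per-sample values were left out.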

Additional observations from a re-analysis of the deposited data

Results flagged for a closer look

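Of 18 groups of 4 arrays in which every array had a value for a named clone, 2 held an array far from the other 3, and chance gives this in about 1 in 20 groups. For Nrx-1 at day 10 the lowest array, replicate 4, was at -0.0045, while the others lay between 0.48 and 0.57. For Gdh at day 10 the lowest array, replicate 3, was at -0.78. None of the 3 groups of 4 of the GABA genes themselves, the first Gad1 clone on each day and Lcch3 at day 10, held such an array.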

How the results depend on the processing

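None of the GABA clones was called under any alternative, in the contrasts in which it could be tested. The sign of the first Gad1 clone at day 10 turned after centring (0.0772) and when the ratios were read as already turned (0.0756), and that of its difference between days turned with the neighbours subtracted (0.15). For Gabat the day-10 sign turned after centring (0.17) and with neighbours subtracted (0.21), and the difference turned to -0.0408 and -0.0413. Reading the ratios as already turned also changes the sign of the second Gad1 clone and of Ssadh at day 14 (from -0.31 to 0.31). Gabat was not fitted under that reading. The day-10 mean of Ssadh, -0.12, turned after centring (0.0395) and with neighbours subtracted (0.24). Without single arrays, the first Gad1 clone ran from -0.23 to 0.0086 at day 10, from -0.23 to -0.11 at day 14 and from -0.16 to 0.0776 for the difference, and Lcch3 from -0.15 to 0.26 at day 10, from -0.61 (without day-14 replicate 3) to -0.09 (without day-14 replicate 2) at day 14, and from -0.64 (without day-14 replicate 3) to -0.06 (without day-10 replicate 1) for the difference. The correlation of the first Gad1 clone with Lcch3 became -0.97 with neighbours subtracted. The cause of these shifts was not tested.

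Other pathway clones called at day 10 numbered 5 as deposited, 1 after centring, 1 with neighbours subtracted, 2 with at least 2 arrays of each day, 3 with all 8 arrays, 2 without the dye term, 0 with ratios read as already turned, 0 with day 10 alone, and 1 to 5 without single arrays. Signs that turned, all in clones that were not called there, were those of Gs1 (0.083), Gdh (0.0616) and Eaat2 (0.11) at day 10 after centring, Eaat2 with neighbours subtracted (0.0442 at day 10 and 0.0386 at day 14), and, with ratios read as already turned, Gdh at day 10 (0.18), sgll (0.0859), Nlg3 (0.039) and SdhD (-0.18) at day 14. Without single arrays Gs1 ran from -0.30 to 0.0228 and Gdh from -0.27 to 0.086 at day 10, and SdhD from -0.0217 to 0.17 at day 14.

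Over all clones, 638 were called at day 10, and 138 after centring, 60 with neighbours subtracted, 268 without the dye term, 11 with ratios read as already turned, 87 with day 10 alone and 219 to 725 without single arrays (fewest without day-10 replicate 1). Of the calls 97.2% were lower, and 72.5% after centring. At day 14 the count was 0, and 853 with day 14 alone. For the difference it was 0, 1 with all 8 arrays and 0 to 18 without single arrays (18 without day-10 replicate 3). For the mean of both days it was 450, and 190 with neighbours subtracted, 199 without the dye term, 239 with ratios read as already turned and 147 to 482 without single arrays (fewest without day-14 replicate 3).

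With the replicate number as a block, the difference between the days was -0.01 for the first Gad1 clone (limma adjusted p = 0.974) and -0.21 for Lcch3 (limma adjusted p = 0.663), with 0 clones called. Same-numbered arrays had correlated deviations of 0.0997, 0.265, 0.157 and 0.252 over 1881 clones, but they also share their dye orientation, and day-14 replicate 1 correlated best with day-10 replicate 2 (0.187), so the numbers were not taken as pairs.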
